A study of Mus musculus with 26 samples.

Results

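Chylomicrons are the particles in which the absorptive cells of the intestine send dietary fat to the lymph. 9 genes of their assembly were followed, out of 55385 gene identifiers in the deposited tables: the apolipoproteins Apob, Apoa1, Apoa4 and Apoc3, the lipid transfer protein subunit Mttp, the fatty acid binding protein Fabp2, and the acyltransferases Mogat2, Dgat1 and Dgat2. They were chosen by name as the apolipoprotein and chylomicron assembly genes, mapped from mouse Ensembl identifiers to symbols, and 9 of 9 passed the low-count filter in both tables. The libraries came from organoids, small epithelial structures grown in Matrigel from crypts of C57BL/6 mice. Every group, controls included, grew in a medium with EGF, Noggin, R-spondin, N-acetyl-L-cysteine, B27, N2, Y-27632, a ROCK inhibitor, and CHIR-99021, a GSK3 inhibitor that activates Wnt signalling. The groups were vehicle, arachidonic acid (AA) at 25 µM and prostaglandin E2 (PGE2) at 50 nM, each after 1 and after 3 days (3 libraries per group), with vehicle and AA at 25 µM also after 6 days (4 libraries per group). AA is the dietary fatty acid from which prostaglandins are made, PGE2 among them. The labels name PGE2 in one place and a dimethyl analogue of it in another, and PGE2 here stands for whichever was given. The labels give no genotype beyond the strain and no age or sex of the mice. Whether replicates came from different mice or cultures, or were repeat libraries of 1 culture, is not stated, so p-values measure only the spread between these libraries.

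In the absorptive enterocyte, fatty acids and monoacylglycerol taken up from the gut are bound by carriers such as Fabp2 and joined again to triacylglycerol by Mogat2, which makes diacylglycerol, and by Dgat1 and Dgat2, which add the last acyl chain. Mttp loads this lipid onto Apob as Apob is made in the endoplasmic reticulum, and without Mttp or Apob no chylomicron is secreted. Apoa4, Apoa1 and Apoc3 ride on the particle surface: Apoa4 is made in larger amounts after a fatty meal, Apoa1 is shared with high density lipoprotein, and Apoc3 slows the clearance of the particle.

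Each library of days 1 and 3 held between 1.01e+07 and 1.46e+07 counts, and each of day 6 between 1.61e+07 and 1.98e+07. Mitochondrial rRNA took 6.74% to 10.3% of the counts at days 1 and 3 and 0.00305% to 0.266% at day 6, so levels were compared within a table and the day 6 libraries were set against day 3 only through their own vehicle. At day 6 the replicates 4 lay apart from the rest of their groups on the first principal component, vehicle at -19.2 against -13.4 to -11.6 and AA at 19.5 against 11.3 to 12.8. Leaving out AA replicate 4 changed the call of 0 of the 9 members at day 6. Leaving out vehicle replicate 4 changed the call of Apoa1, as given below. Markers of the intestinal absorptive cell were present in every library: 16 of 16 had counts in each group, with Vil1 and Alpi, brush border proteins, at means of 595 and 305 CPM (counts scaled to a common library total) at days 1 and 3. The liver also makes most of these apolipoproteins, but 7 hepatocyte markers summed to at most 14.6 CPM in a library, mostly Ttr. Alb, albumin, reached at most 0.785 CPM and Ahsg had 0 counts. Marker sums of fibroblasts, immune cells and endothelium reached at most 1.45, 6.35 and 2.16 CPM.

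The promoters of 5 of the 9 genes were in the RefSeq table (GRCm38.p6), and all 5 are shown, whatever their response. Under PGE2 at day 1 Apoa1, Apoa4 and Apob of these rose and Mttp and Fabp2 fell. Each sequence is the 250 bases before the RefSeq start, 5′ to 3′ on the strand of the gene: Apoa1 at chr9:46228380-46228629 (plus), Apoa4 at chr9:46240594-46240843 (plus), Apob at chr12:7977427-7977676 (plus), Mttp at chr3:138143419-138143668 (minus) and Fabp2 at chr3:122894822-122895071 (plus). In another gene annotation, GENCODE vM21, the genes Apoa1, Apoa4 and Apob begin inside these windows, and Mttp begins upstream of its window. Distances below are to the RefSeq start alone. Capitals mark CAAAG on either strand, the core of sites for HNF4, the nuclear receptor of enterocyte and liver genes, and TGACG on either strand, the core of sites for CREB, the factor that answers to cAMP.

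Apoa1: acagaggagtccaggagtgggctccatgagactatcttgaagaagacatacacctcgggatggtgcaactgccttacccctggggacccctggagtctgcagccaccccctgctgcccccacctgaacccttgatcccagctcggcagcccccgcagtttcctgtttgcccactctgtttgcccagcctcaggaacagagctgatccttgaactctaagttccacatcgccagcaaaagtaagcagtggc

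Apoa4: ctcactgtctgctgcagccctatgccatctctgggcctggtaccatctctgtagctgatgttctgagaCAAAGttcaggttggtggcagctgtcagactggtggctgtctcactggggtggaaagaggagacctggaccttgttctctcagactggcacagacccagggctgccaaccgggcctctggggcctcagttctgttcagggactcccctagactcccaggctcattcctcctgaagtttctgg

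Apob: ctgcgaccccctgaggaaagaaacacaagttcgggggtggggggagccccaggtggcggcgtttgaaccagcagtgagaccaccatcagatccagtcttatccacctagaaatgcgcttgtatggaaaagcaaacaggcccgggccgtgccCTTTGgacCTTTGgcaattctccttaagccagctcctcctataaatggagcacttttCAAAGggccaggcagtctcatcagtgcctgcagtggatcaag

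Mttp: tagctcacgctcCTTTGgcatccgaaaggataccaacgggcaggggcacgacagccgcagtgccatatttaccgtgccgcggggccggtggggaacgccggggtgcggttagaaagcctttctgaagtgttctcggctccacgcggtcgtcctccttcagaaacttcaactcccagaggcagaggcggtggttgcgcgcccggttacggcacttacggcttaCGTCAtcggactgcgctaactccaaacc

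Fabp2: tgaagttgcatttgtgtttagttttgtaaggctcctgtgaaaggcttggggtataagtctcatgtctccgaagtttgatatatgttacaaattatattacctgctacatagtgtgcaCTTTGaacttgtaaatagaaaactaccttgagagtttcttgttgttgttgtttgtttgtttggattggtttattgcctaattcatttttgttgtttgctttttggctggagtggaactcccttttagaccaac

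CAAAG on either strand was found once in Apoa4 (182 bases before the start), 3 times in Apob (99 to 42 bases), once in Mttp (238 bases) and once in Fabp2 (133 bases), and 48.6% of the 32851 RefSeq promoter windows of this length hold it. TGACG was found once, in Mttp (28 bases before the start), against 17.8% of all windows. TATAAA was found once, in Apob (60 bases before the start, 12.4% of all windows). A site of intestinal zinc finger factors, AGATAA, was in none of the 5 windows (9.99% of all). The searched motifs do not overlap in these windows. A match here is a description of the letters and no evidence that the factor binds.

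Per kilobase of exon, Fabp2 was the highest of the 9 genes in vehicle at day 1, at 181 ± 8.33 CPM per kb (mean ± SD, n = 3). Apoa1 (59.3 ± 2.14), Apob (56.8 ± 3.66), Mttp (54.6 ± 0.832) and Apoa4 (51.9 ± 1.99 CPM per kb) lay close together. The acyltransferases were lower, Dgat1 at 26.7 ± 1.29, Mogat2 at 20.2 ± 0.929 and Dgat2 at 12.6 ± 0.823 CPM per kb. Apoc3 was lowest at 2.48 ± 0.450 CPM per kb, and its 20 to 239 counts per library carry the largest counting error of the 9. Fabp2 was also highest, and Apoc3 lowest, in vehicle at days 3 and 6.

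**Figure D1:**
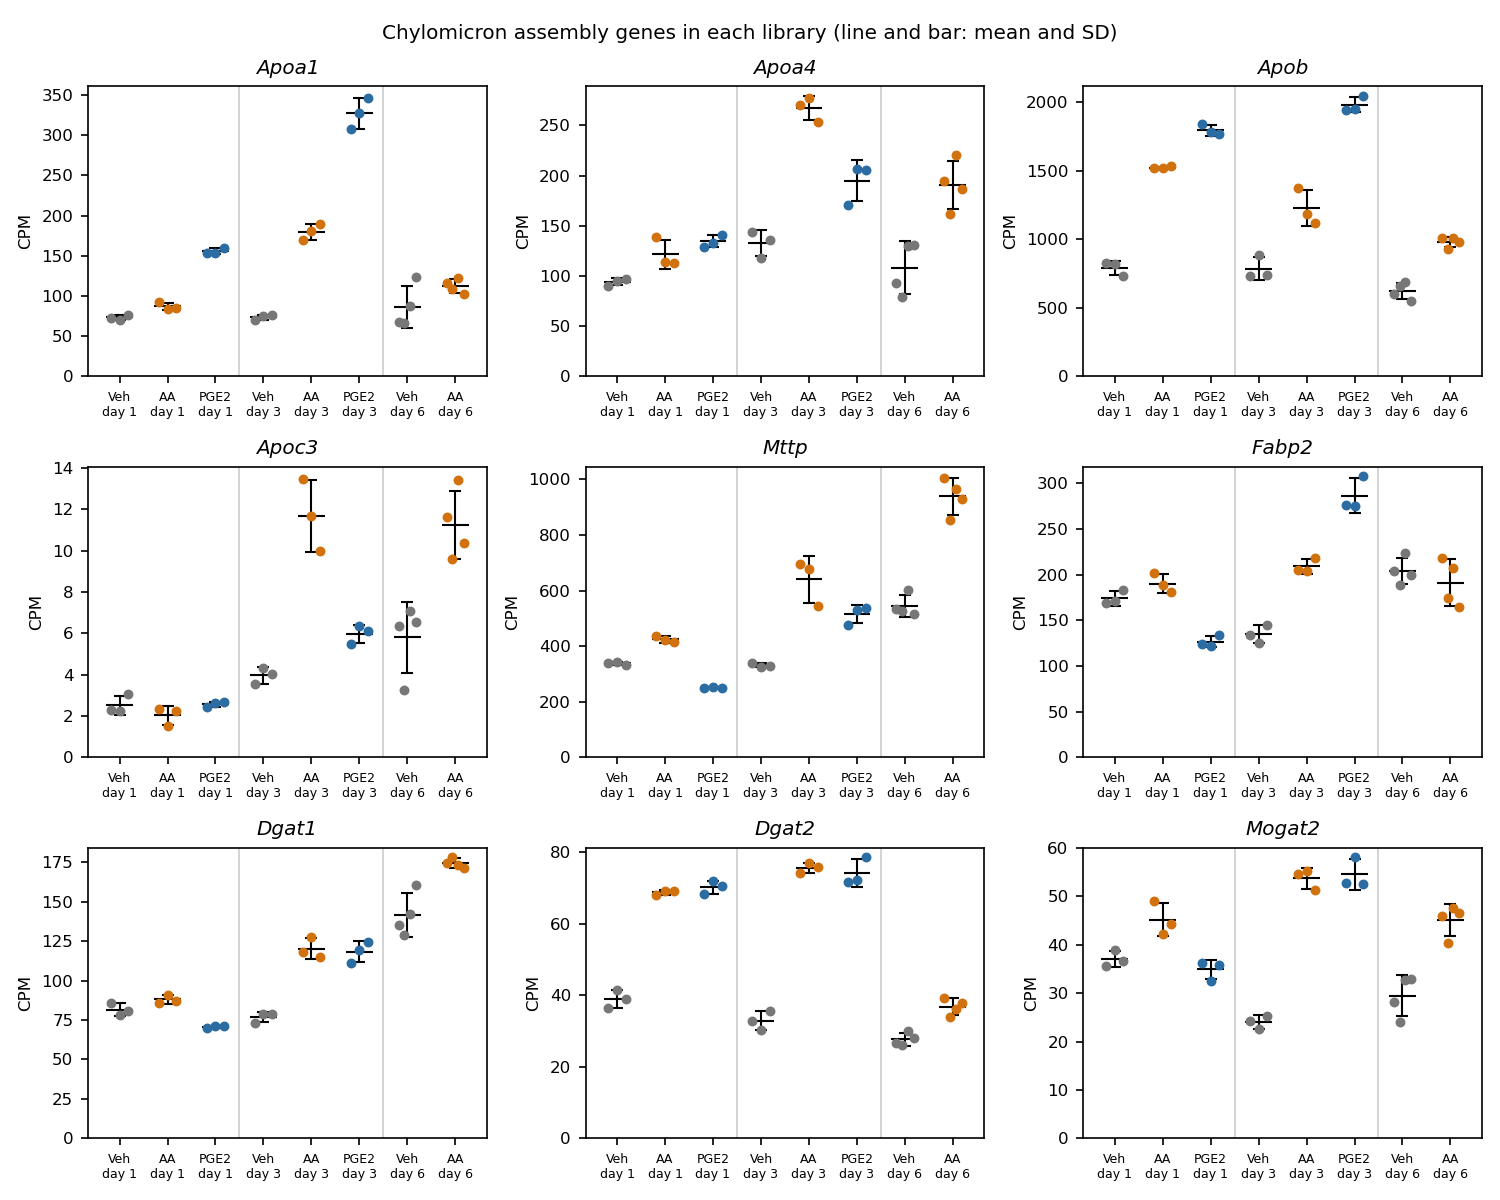
Level of each of the 9 genes in every library, in TMM-scaled CPM on axes of their own, by treatment and day; each point is 1 library, the line the group mean and the bar the SD. At day 3 every AA and PGE2 library lies above every vehicle library for all 9 genes.

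The first question was how the assembly genes answered to each agent on each day. A gene is said to rise or fall where the Benjamini-Hochberg adjusted p of edgeR's quasi-likelihood test over all genes was below 0.05. With AA at day 1, 6 of the 9 rose, 0 fell and 3 were not called, against 19.5% of all genes higher and 22.2% lower. At day 3 of AA 9 of 9 rose (all genes: 21.2% higher, 20.1% lower), with a median log2 fold change of 1.01 against -0.03 over all genes. At day 6 of AA 7 rose and Apoa1 and Fabp2 were not called (all genes: 15.3% higher, 15.5% lower). The balance of higher and lower calls over all genes at day 3 of AA depended on the scaling, 2461 higher and 3901 lower with total counts alone against 3143 and 2986, while 9 of 9 members were called higher in both.

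With PGE2 at day 1 the members divided: Apoa1, Apoa4, Apob and Dgat2 rose, Mttp, Fabp2 and Dgat1 fell, and Apoc3 and Mogat2 were not called. On that day 27.0% of all genes were higher and 28.9% lower. At day 3 of PGE2 9 of 9 rose, with a median log2 fold change of 1.09, against -0.04 over all genes, where 28.9% were higher and 30.1% lower. AA and PGE2 were compared with the same vehicle libraries at each day, so their responses are given side by side and not correlated. The libraries of treatment and vehicle did not overlap for 7, 9 and 7 of the 9 members at days 1, 3 and 6 of AA and 7 and 9 at days 1 and 3 of PGE2. Of all genes tested, 53.6%, 45.4% and 32.7% did not overlap in the 3 AA comparisons and 62.8% and 62.7% in the 2 PGE2 comparisons. In bulk libraries fewer cells of a type and less RNA per cell cannot be told apart.

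**Figure D2:**
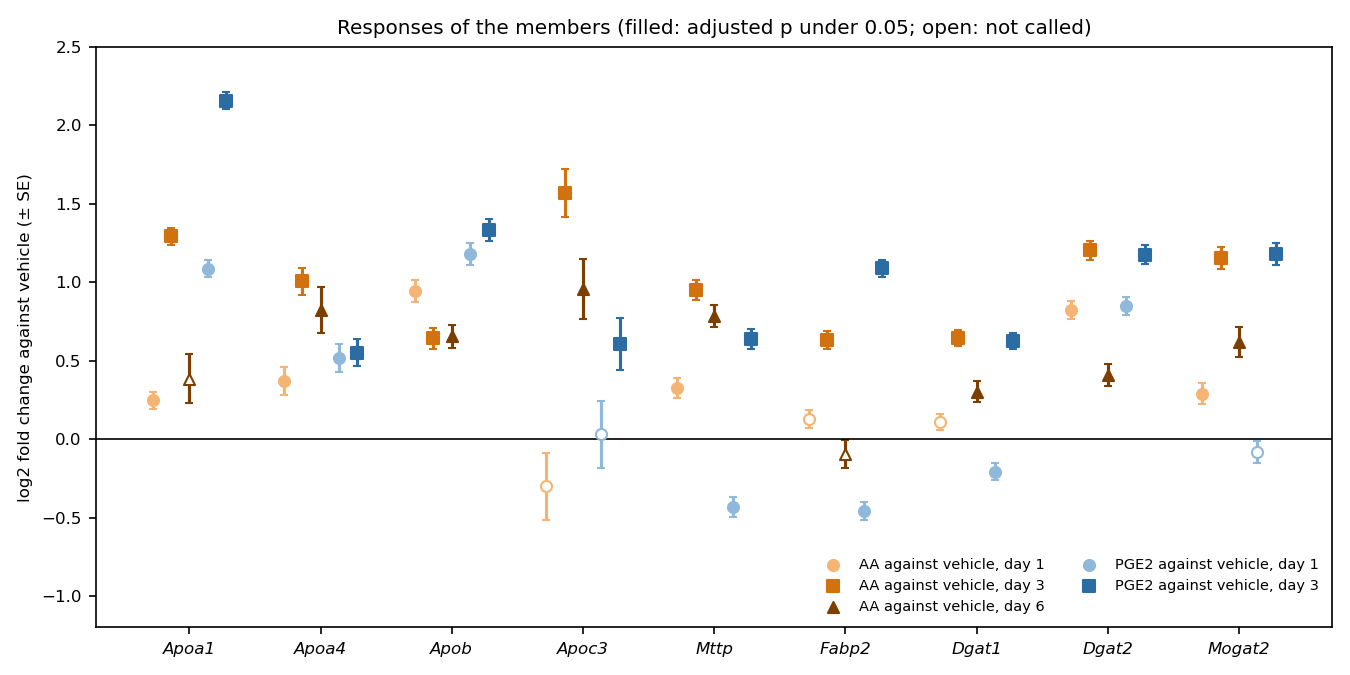
Log2 fold change of each gene against the vehicle of its day, with the standard error of the fit, for AA at days 1, 3 and 6 and PGE2 at days 1 and 3. All 9 lie above 0 at day 3 of either agent, and Mttp, Fabp2 and Dgat1 lie below 0 at day 1 of PGE2.

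Apob (ENSMUSG00000020609.14, chromosome 12), the structural protein of the particle, responded early and to both agents. At day 1 its vehicle libraries held 826, 816 and 733 CPM, its AA libraries 1519.9, 1517 and 1530.3 CPM and its PGE2 libraries 1840.5, 1782 and 1764 CPM. At day 3 they held 733, 886 and 739 CPM with vehicle, 1374, 1185 and 1120.2 CPM with AA and 1944, 1951 and 2042 CPM with PGE2. Every treated library exceeded every vehicle library of its day, and at both days the PGE2 libraries were the highest. The log2 fold change was 0.94 ± 0.07 (SE) with AA and 1.18 ± 0.07 with PGE2 at day 1 (adjusted p = 7.17e-12 and 2.23e-14). At day 3 it was 0.64 ± 0.07 and 1.33 ± 0.07 (adjusted p = 1.37e-08 and 1.93e-15). At day 6 Apob rose from 623 ± 61.4 to 981 ± 35.6 CPM with AA (mean ± SD, n = 4; 0.66 ± 0.07, adjusted p = 5.12e-05), again without overlap. The deaminase Apobec1, which edits the Apob message in enterocytes so that the short form of the protein is made, also rose in each comparison. Its log2 fold changes were 1.09 ± 0.09, 1.09 ± 0.10 and 0.73 ± 0.08 at days 1, 3 and 6 of AA and 1.53 ± 0.09 and 1.80 ± 0.10 at days 1 and 3 of PGE2. Gene counts do not show whether the Apob message was edited.

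Apoa1 (ENSMUSG00000032083.8, chromosome 9) had one of the widest ranges of the 9. Its libraries held 73.1, 70.7 and 76.0 CPM with vehicle at day 1, 92.3, 83.7 and 84.6 CPM with AA and 153, 153 and 159.9 CPM with PGE2. At day 3 the vehicle libraries held 69.9, 74.9 and 75.9 CPM, the AA libraries 169.9, 181 and 189.7 CPM and the PGE2 libraries 308, 328 and 347 CPM. The order vehicle, AA, PGE2 held on both days with no overlap between groups. Apoa1 rose by 0.25 ± 0.06, adjusted p = 6.65e-04 (log2, SE) with AA and by 1.09 ± 0.06, adjusted p = 6.94e-17 with PGE2 at day 1. At day 3 it rose 2.45-fold with AA (1.29 ± 0.06, adjusted p = 9.15e-18) and 4.46-fold with PGE2 (2.16 ± 0.05, adjusted p = 4.80e-24), the largest rise of the 9 with PGE2. At day 6 the vehicle libraries held 68.1, 66.2, 87.5 and 123 CPM and the AA libraries 116, 109, 122 and 102 CPM. Vehicle replicate 4, which lay apart from its group, was the highest of the 8, and the difference was not called (0.39 ± 0.16, adjusted p = 0.0806, 95% interval 0.08 to 0.69, not adjusted for the number of genes, as for all intervals here). Without it the log2 fold change was 0.61 (adjusted p = 0.00335).

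Apoa4 (ENSMUSG00000032080.6) and Apoc3 (ENSMUSG00000032081.10) follow Apoa1 on chromosome 9 with no other protein-coding gene between the 3, and took another order. At day 1 Apoa4 held 90.2, 94.9 and 97.4 CPM with vehicle, 139, 114 and 113 CPM with AA and 129, 133 and 141 CPM with PGE2. After 3 days Apoa4 held 144, 118 and 136 CPM with vehicle, 270.0, 278 and 254 CPM with AA and 171, 207 and 206 CPM with PGE2. Here the AA libraries of day 3 were the highest, above every PGE2 library. Apoa4 rose with AA at days 1, 3 and 6, by 0.37 ± 0.09, 1.01 ± 0.09 and 0.82 ± 0.15 on the log2 scale (adjusted p = 0.00242, 1.93e-08 and 0.00159), and with PGE2 at days 1 and 3 by 0.52 ± 0.09 and 0.55 ± 0.09 (adjusted p = 7.26e-05 and 2.08e-05). Short antisense loci overlap its exons, and one of them, Gm10680, had group means of at most 0.577 CPM.

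Apoc3 was at the edge of detection at day 1, with 2.28, 2.23 and 3.04 CPM in vehicle, 2.34, 1.5 and 2.23 CPM in AA and 2.44, 2.60 and 2.67 CPM in PGE2 libraries. The libraries of each agent overlapped those of vehicle, and neither agent was called (-0.30 ± 0.21, adjusted p = 0.272, 95% interval -0.72 to 0.12, for AA and 0.03 ± 0.21, adjusted p = 0.915, 95% interval -0.38 to 0.45, for PGE2). After 3 days Apoc3 held 3.53, 4.33 and 4.02 CPM with vehicle, 13.4, 11.6 and 9.96 CPM with AA and 5.5, 6.35 and 6.09 CPM with PGE2. All 3 groups were apart, and AA gave the larger rise, 1.57 ± 0.15 against 0.60 ± 0.17 for PGE2 on the log2 scale (adjusted p = 8.29e-10 and 0.00236), the largest rise of the 9 with AA. At day 6 Apoc3 rose from 5.81 ± 1.72 to 11.2 ± 1.67 CPM (0.96 ± 0.19, adjusted p = 0.003).

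Mttp (ENSMUSG00000028158.14, chromosome 3), the subunit of the transfer protein that lipidates Apob, moved apart from Apob under PGE2. At day 1 Mttp held 340.1, 343 and 333 CPM with vehicle, 436, 423 and 413 CPM with AA and 251, 253 and 248 CPM with PGE2. The PGE2 libraries were all below and the AA libraries all above vehicle, with a log2 fold change of 0.32 ± 0.06, adjusted p = 1.36e-04, for AA and of -0.44 ± 0.06, adjusted p = 1.58e-06, for PGE2. At day 3 the values were 338, 326 and 330.1 CPM with vehicle, 697, 679 and 544 CPM with AA and 478, 530.0 and 539 CPM with PGE2. Both agents now gave libraries above vehicle, by 0.95 ± 0.06, adjusted p = 1.32e-12 with AA and 0.64 ± 0.06, adjusted p = 1.42e-09 with PGE2. At day 6 Mttp held 1007, 852, 967 and 929 CPM with AA against 532, 525, 601 and 517 CPM with vehicle (0.79 ± 0.07, adjusted p = 1.21e-05). Trmt10a, on the opposite strand, shares exonic bases with Mttp at group means of 12.1 to 23.6 CPM, and since the strand setting of the counting is not given, reads there cannot be assigned to one or the other.

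Fabp2 (ENSMUSG00000023057.5, chromosome 3), the intestinal fatty acid binding protein, held 169, 171 and 184 CPM with vehicle, 201, 188 and 181 CPM with AA and 124, 122 and 134 CPM with PGE2 at day 1. AA overlapped vehicle and was not called (0.13 ± 0.06, adjusted p = 0.0692, 95% interval 0.02 to 0.24), while PGE2 lay below it and Fabp2 fell (-0.46 ± 0.06, adjusted p = 6.18e-08). After 3 days Fabp2 held 134, 125 and 145 CPM with vehicle, 205, 204 and 218 CPM with AA and 276, 275 and 309 CPM with PGE2. Both agents were above vehicle and PGE2 was the higher, with log2 rises of 0.63 ± 0.06, adjusted p = 1.90e-10 and 1.09 ± 0.06, adjusted p = 1.93e-16. At day 6 vehicle held 204, 189, 223 and 200.03 CPM and AA 218, 174, 208 and 165 CPM, groups that overlapped (-0.09 ± 0.09, adjusted p = 0.453, 95% interval -0.27 to 0.08). Its relative Fabp1, the liver-type binding protein that enterocytes also make, was read from the list of uptake genes. Fabp1 rose with AA at days 1, 3 and 6 (0.84 ± 0.08, 1.22 ± 0.08 and 1.66 ± 0.16) and fell with PGE2 at day 1, from 67.3 ± 2.29 to 18.02 ± 1.48 CPM (-1.90 ± 0.10, adjusted p = 3.44e-13), and at day 3, from 82.0 ± 2.87 to 67.9 ± 7.84 CPM (-0.27 ± 0.08, adjusted p = 0.00732).

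The acyltransferase Dgat2 (ENSMUSG00000030747.5, chromosome 7) rose with both agents on every day measured. It held 36.5, 41.5 and 38.9 CPM with vehicle, 68.0, 69.2 and 69.2 CPM with AA and 68.1, 71.8 and 70.5 CPM with PGE2 at day 1. After 3 days Dgat2 held 32.7, 30.2 and 35.6 CPM with vehicle, 74.1, 76.9 and 75.8 CPM with AA and 71.7, 72.1 and 78.5 CPM with PGE2. All treated libraries of both days lay above all vehicle libraries, and neighbouring treated groups overlapped. The log2 rises were 0.82 ± 0.06 and 1.20 ± 0.06 with AA and 0.85 ± 0.06 and 1.18 ± 0.06 with PGE2 (adjusted p from 9.08e-17 to 5.73e-13). At day 6 it went from 27.7 ± 1.77 to 36.8 ± 2.36 CPM with AA (0.41 ± 0.07, adjusted p = 0.00109).

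Dgat1 (ENSMUSG00000022555.12, chromosome 15), the other enzyme of this last step, had the narrowest range of the 9. It held 86.0, 78.2 and 80.8 CPM with vehicle, 86.0, 91.2 and 87.3 CPM with AA and 70.1, 71.2 and 71.1 CPM with PGE2 at day 1. AA was not called (0.11 ± 0.05, adjusted p = 0.0951, 95% interval 0.01 to 0.21), and PGE2 lay below vehicle in every library (-0.21 ± 0.05, adjusted p = 0.0018). Its level at day 3 was 73.4, 78.7 and 78.7 CPM with vehicle, 118, 128 and 115 CPM with AA and 111, 119 and 124 CPM with PGE2. The treated groups overlapped each other and both exceeded vehicle, by 0.64 ± 0.05, adjusted p = 2.11e-11 and 0.62 ± 0.05, adjusted p = 1.27e-11 on the log2 scale. At day 6 it rose from 142 ± 13.9 to 175 ± 2.95 CPM (0.30 ± 0.07, adjusted p = 0.00548).

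Mogat2 (ENSMUSG00000052396.7), which lies beside Dgat2 on chromosome 7 with no protein-coding gene between them, held 35.6, 38.9 and 36.6 CPM with vehicle, 49.0, 42.2 and 44.3 CPM with AA and 36.2, 32.6 and 35.9 CPM with PGE2 at day 1. AA was above vehicle (0.29 ± 0.07, adjusted p = 6.21e-04) and PGE2 overlapped it (-0.08 ± 0.07, adjusted p = 0.345, 95% interval -0.22 to 0.06). By day 3 Mogat2 held 24.2, 22.6 and 25.4 CPM with vehicle, 54.7, 55.2 and 51.2 CPM with AA and 52.8, 58.2 and 52.6 CPM with PGE2. Both agents lay above vehicle, 2.23-fold with AA (1.16 ± 0.07, adjusted p = 2.66e-14) and 2.27-fold with PGE2 (1.18 ± 0.07, adjusted p = 3.27e-15). At day 6 AA gave 45.1 ± 3.28 CPM against 29.5 ± 4.25 CPM (0.62 ± 0.10, adjusted p = 6.28e-04).

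Ordered over the 6 groups of days 1 and 3, the ratio of the highest to the lowest group mean was 5.77 for Apoc3, 4.47 for Apoa1, 2.84 for Apoa4, 2.55 for Mttp, 2.52 for Apob, 2.30 for Dgat2, 2.27 for Mogat2, 2.26 for Fabp2 and 1.70 for Dgat1. Vehicle at day 1 and at day 3 were neighbours whose libraries overlapped for Apoa1, Apob, Mttp and Dgat1. PGE2 at day 1 was the lowest group for Mttp, Fabp2 and Dgat1, overlapping vehicle at day 3 for Fabp2. PGE2 at day 3 was the highest for Apoa1, Apob, Fabp2 and Mogat2 and AA at day 3 for Apoa4, Apoc3, Mttp, Dgat1 and Dgat2, with overlap between those 2 groups for Mogat2, Dgat1 and Dgat2.

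AA and PGE2 were then compared directly, at 25 µM and 50 nM, so the doses differ and the comparison is between these exposures. At day 1 Mttp, Fabp2, Mogat2 and Dgat1 were higher with AA, by 0.76 ± 0.06, 0.58 ± 0.06, 0.37 ± 0.07 and 0.32 ± 0.05 on the log2 scale, and Apoa1 and Apob lower, at -0.84 ± 0.05 and -0.24 ± 0.07. The Apob call was lost with total counts alone (-0.17, adjusted p = 0.0942). That is 4 of 9 higher, against 11.3% of all genes, and 2 lower, against 16.5%; over all genes the split was 1671 higher and 2448 lower, and 2572 and 1746 with total counts alone. At day 3 Apoa4, Apoc3 and Mttp were higher with AA (0.45 ± 0.08, adjusted p = 2.60e-04; 0.96 ± 0.14, adjusted p = 1.74e-06; 0.31 ± 0.06, adjusted p = 2.25e-04). Apoa1, Apob and Fabp2 were lower (-0.86 ± 0.05, adjusted p = 2.60e-14; -0.69 ± 0.07, adjusted p = 5.35e-09; -0.45 ± 0.06, adjusted p = 9.66e-08). The 3 apolipoproteins of the chromosome 9 cluster were thus on both sides, Apoa1 higher with PGE2 and Apoa4 and Apoc3 higher with AA, without overlap of the libraries. Libraries of AA and PGE2 did not overlap for 7 of 9 members at day 1 and 6 at day 3, against 46.1% and 47.4% of all genes. Dgat1, Dgat2 and Mogat2 were not called at day 3, at 0.02 ± 0.05, 0.03 ± 0.05 and -0.02 ± 0.06 (95% intervals -0.08 to 0.12, -0.08 to 0.13 and -0.15 to 0.10), and each changed sign in some alternative setting. The background at day 3 was 18.1% higher and 20.3% lower.

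With vehicle alone, Apoa4 and Apoc3 were higher at day 3 than at day 1 (0.50 ± 0.09, adjusted p = 2.31e-04; 0.65 ± 0.19, adjusted p = 0.00817) and Mogat2, Fabp2 and Dgat2 lower (-0.62 ± 0.07, adjusted p = 7.83e-08; -0.37 ± 0.06, adjusted p = 7.29e-06; -0.25 ± 0.06, adjusted p = 0.0025). The other 4 were not called, and Apoa1, Apob and Mttp, at 0.00 ± 0.06, -0.01 ± 0.07 and -0.03 ± 0.06, changed sign in some alternative settings. Over all genes 19.8% were higher and 20.5% lower, 2943 and 3039 genes, which became 3715 and 2047 with total counts alone. The libraries of the 2 days did not overlap for 5 members and for 47.5% of all genes. The responses at day 3 were thus measured against a vehicle level below that of day 1 for Mogat2, Fabp2 and Dgat2, and above it for Apoa4 and Apoc3.

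Whether a response changed with time was tested as a difference of responses, each against the vehicle of its own day. The AA response was larger at day 3 than at day 1 for 8 of 9 genes, against 10% of all genes higher. The differences were largest for Apoc3 (1.87 ± 0.26, adjusted p = 5.93e-06), Apoa1 (1.05 ± 0.08, adjusted p = 8.76e-11) and Mogat2 (0.87 ± 0.10, adjusted p = 1.06e-07) and smallest for Dgat2 (0.38 ± 0.08, adjusted p = 0.00143). Apob went the other way (-0.30 ± 0.10, adjusted p = 0.0299; background 7.95% lower), a call lost when any of 6 libraries was left out: vehicle replicate 3 or AA replicate 1, 2 or 3 of day 1, or vehicle replicate 2 or AA replicate 2 of day 3 (adjusted p from 0.056 to 0.0939). The PGE2 response was larger at day 3 for 6 genes, against 12.6% of all genes higher and 11.6% lower. Fabp2 (1.55 ± 0.08, adjusted p = 6.31e-15), Mttp (1.07 ± 0.09, adjusted p = 5.27e-10) and Dgat1 (0.83 ± 0.08, adjusted p = 7.13e-10) went from a fall to a rise between these days, and the others were Mogat2 (1.26 ± 0.10, adjusted p = 3.30e-11), Apoa1 (1.07 ± 0.08, adjusted p = 5.79e-12) and Dgat2 (0.33 ± 0.08, adjusted p = 0.00379). Apoa4, Apob and Apoc3 were not called (0.04 ± 0.12, 0.15 ± 0.10 and 0.57 ± 0.27). The AA response at day 6 was smaller than at day 3 for 5 genes, against 10.4% of all genes lower and 8.78% higher. These were Apoa1 (-0.92 ± 0.19, adjusted p = 0.00224), Dgat2 (-0.81 ± 0.09, adjusted p = 1.31e-07), Fabp2 (-0.74 ± 0.11, adjusted p = 1.13e-05), Mogat2 (-0.55 ± 0.12, adjusted p = 0.00112) and Dgat1 (-0.36 ± 0.08, adjusted p = 0.00237). Apob, Mttp, Apoa4 and Apoc3 were not called, at -0.003 ± 0.10, -0.18 ± 0.09, -0.20 ± 0.20 and -0.63 ± 0.25. Over all genes these 3 contrasts split into 1487 higher and 1181 lower genes by the main scaling and 989 and 1406 with total counts alone for the first, 1876 higher and 1716 lower genes by the main scaling and 2221 and 1277 with total counts alone for the second and 1362 higher and 1607 lower genes by the main scaling and 1747 and 1022 with total counts alone for the third.

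**Figure D3:**
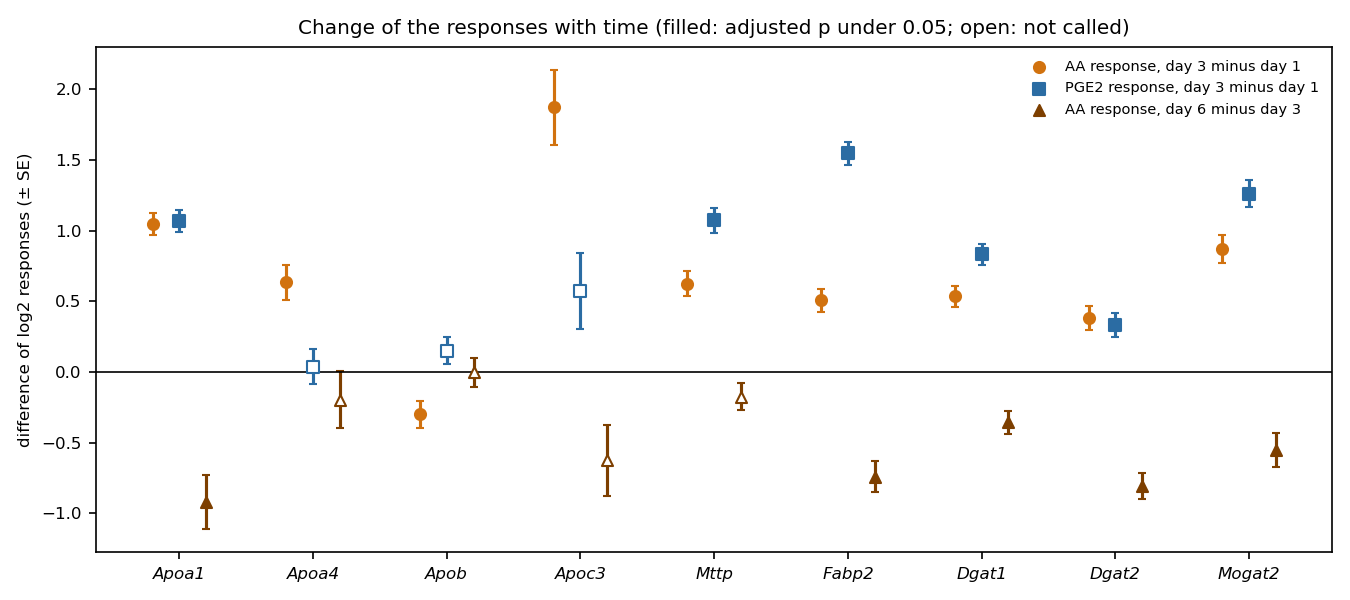
Difference of responses on the log2 scale, with standard errors, for the AA response at day 3 minus day 1, the PGE2 response at day 3 minus day 1 and the AA response at day 6 minus day 3. Filled points were called and open points were not; Apoc3 has the highest circle at 1.87, Fabp2 the highest square at 1.55, and the triangles of 5 genes were called below 0.

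The genes around the 9 on the same route were read from 5 lists: other apolipoproteins, uptake and activation of fatty acids, glycerolipid synthesis, particle lipidation and lipid droplets, and export from the endoplasmic reticulum. Of 46 listed genes 40 were tested. Below, a gene is named for comparisons where it was among the 3 called with the smallest p of its list. It may have changed in others. At days 1, 3 and 6 of AA 16, 25 and 20 of them rose and 6, 5 and 4 fell, and at days 1 and 3 of PGE2 17 and 25 rose and 11 and 7 fell. Over all genes tested, 19.5%, 21.2% and 15.3% rose and 22.2%, 20.1% and 15.5% fell in the 3 AA comparisons, and 27.0% and 28.9% rose and 28.9% and 30.1% fell in the 2 PGE2 comparisons. Apoa5 had 0 counts in every library, and Apoc1, Apoc2 and Apom had too few to be tested. Apoe, an apolipoprotein made by many tissues, fell at day 3 of AA (-0.57 ± 0.20, adjusted p = 0.0238) and of PGE2 (-0.58 ± 0.20, adjusted p = 0.0144) and at day 6 of AA (-0.34 ± 0.08, adjusted p = 0.00833).

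In glycerolipid synthesis, the enzymes that begin from glycerol phosphate did not move together. Gpam, which adds the first acyl chain, fell at days 1 and 3 of AA (-1.01 ± 0.06 and -0.82 ± 0.06) and of PGE2 (-1.57 ± 0.06 and -1.34 ± 0.06), whereas Agpat2, which adds the next, rose in the same comparisons (0.85 ± 0.06, 1.13 ± 0.07, 1.32 ± 0.06 and 1.37 ± 0.07). Soat1, which esterifies cholesterol, fell at day 3 of both (-0.60 ± 0.05 and -0.75 ± 0.05). Of uptake genes, Slc27a4, a fatty acid transporter, and Acsl5, an acyl-CoA synthetase, rose at day 3 with AA (0.88 ± 0.05 and 0.77 ± 0.05) and PGE2 (0.93 ± 0.05 and 1.04 ± 0.05), and Scarb1, a sterol and lipoprotein receptor, fell at day 6 of AA (-1.31 ± 0.10).

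Of the 9 genes of particle lipidation and lipid droplets, 6, 7 and 4 rose and 1, 0 and 0 fell at days 1, 3 and 6 of AA, and 4 and 7 rose and 0 fell at days 1 and 3 of PGE2, to be read against the same shares of all genes. At day 3 Prap1, a secreted protein that aids lipid transfer by Mttp, rose by 1.22 ± 0.07 and 2.07 ± 0.07, Cideb, which enlarges lipoprotein particles, by 0.98 ± 0.07 and 1.28 ± 0.07, and Tm6sf2, which adds lipid to Apob particles, by 0.92 ± 0.07 and 0.94 ± 0.07. Plin2, a coat protein of lipid droplets, rose already at day 1 (1.10 ± 0.06 with AA and 0.97 ± 0.06 with PGE2). Of 11 tested export genes, whose products build the COPII vesicles and the carriers large enough for chylomicrons, 3, 6 and 5 rose and 0 fell at days 1, 3 and 6 of AA, and 5 and 7 rose and 3 and 0 fell at days 1 and 3 of PGE2. The shares of all genes were 19.5%, 21.2% and 15.3% higher and 22.2%, 20.1% and 15.5% lower for AA. For PGE2 they were 27.0% and 28.9% higher and 28.9% and 30.1% lower. In AA and PGE2 at day 3, Sec23a, a coat protein whose loss traps cargo in the endoplasmic reticulum, rose by 0.63 ± 0.05 and 0.72 ± 0.05, and Sec24d, its partner, by 0.49 ± 0.05 and 0.54 ± 0.05.

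**Figure D4:**
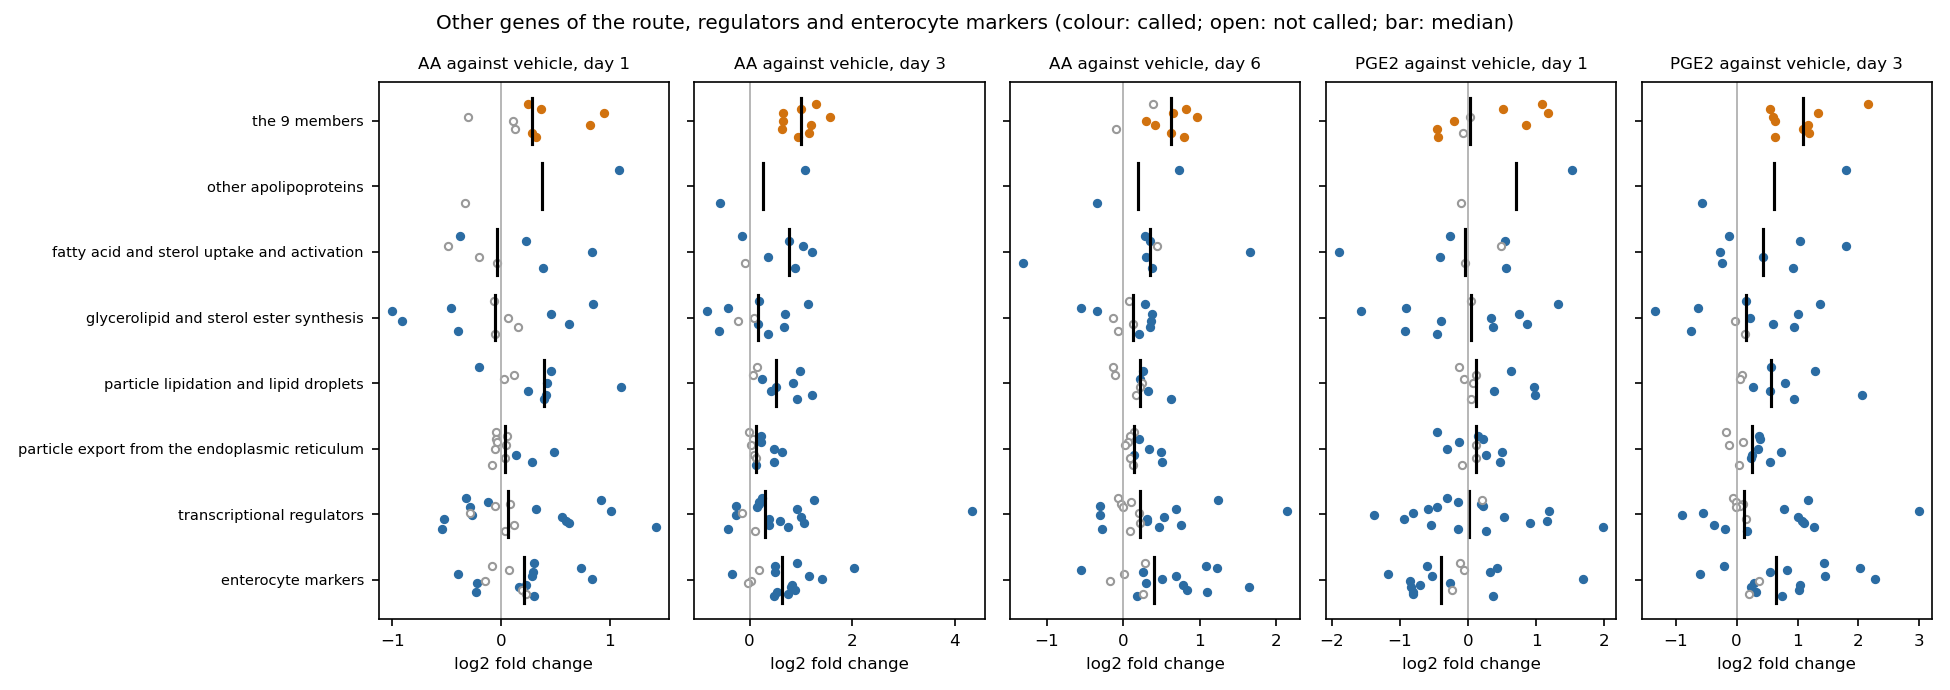
Log2 fold change of each tested gene (points; filled where called, open where not) in the 9 members, the 5 lists of the route, the regulators and the enterocyte markers, with the median of each list as a bar, for the 5 comparisons with vehicle. At day 3 the members' medians are 1.01 and 1.09, and glycerolipid synthesis holds genes on both sides of 0.

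Of 18 regulators of these genes, 7, 13 and 8 rose and 6, 3 and 3 fell at days 1, 3 and 6 of AA, and 8 and 8 rose and 9 and 4 fell at days 1 and 3 of PGE2. The shares of all genes that rose were 19.5%, 21.2% and 15.3% for AA and 27.0% and 28.9% for PGE2, and those that fell 22.2%, 20.1% and 15.5% and 28.9% and 30.1%. Pparg, a nuclear receptor activated by fatty acids, rose at days 1 and 3 of AA (0.63 ± 0.07 and 1.06 ± 0.07) and of PGE2 (0.91 ± 0.07 and 1.10 ± 0.07). Its relative Ppard rose at days 1 and 3 of PGE2 (1.16 ± 0.07 and 1.07 ± 0.07). Each regulator is given only where it was among the 3 called with the smallest p, and may have changed in other comparisons. Hnf4g, the intestinal HNF4, rose at days 3 and 6 of AA (0.92 ± 0.06 and 0.69 ± 0.07), and fell at day 1 of PGE2, as given below. Creb3l3, a membrane-bound factor that drives apolipoprotein genes in liver, rose at days 1 and 6 of AA (0.92 ± 0.10 and 1.23 ± 0.09). Isx, an intestinal homeobox repressor, rose by 4.33 ± 0.20 and 2.14 ± 0.09 at days 3 and 6 of AA and 2.99 ± 0.22 at day 3 of PGE2. Srebf1, the regulator of fatty acid synthesis, fell at day 1 of AA (-0.54 ± 0.05), and Nr1h3, a sterol-sensing nuclear receptor, at day 1 of PGE2 (-1.38 ± 0.11).

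Markers of the absorptive cell moved with some of these changes and against others. The summed level of 16 enterocyte markers was 4164 to 4307 CPM with vehicle, 4519 to 4748 CPM with AA and 4010.0 to 4064 CPM with PGE2 at day 1. At day 3 the ranges were 4378 to 4482, 5709.9 to 6591 and 6064 to 6560.1 CPM, and at day 6 4422 to 5163 CPM with vehicle and 7078 to 7895 CPM with AA. The sum was thus below vehicle at day 1 of PGE2, when Mttp, Fabp2 and Dgat1 fell but Apoa1, Apoa4, Apob and Dgat2 rose. The 9 members together then summed to 2621 to 2676 CPM with PGE2 and 1582 to 1658 CPM with vehicle. This sum mostly follows Apob, at 1795 ± 40.0 CPM with PGE2 and 792 ± 51.0 CPM with vehicle (mean ± SD, n = 3). The median log2 fold change of the 9 was 0.03, so the set as a whole did not rise. At day 3 of PGE2 the enterocyte sum was above vehicle, and 9 of 9 members rose. Of the 16, 4 rose and 9 fell at day 1 of PGE2 and 12 rose and 2 fell at day 3, while 8, 12 and 11 rose and 3, 1 and 1 fell at days 1, 3 and 6 of AA. Over all genes, 27.0% rose and 28.9% fell at day 1 of PGE2, and 28.9% and 30.1% at day 3. For AA at days 1, 3 and 6, 19.5%, 21.2% and 15.3% rose and 22.2%, 20.1% and 15.5% fell. The 8 stem cell markers summed to 2018 to 2086 CPM with vehicle, 1197 to 1251 CPM with AA and 801 to 818 CPM with PGE2 at day 1. The sums at day 3 were 3492 to 3549, 1434 to 1487 and 1077 to 1145 CPM, and those of day 6, 1613 to 1878 CPM with vehicle and 1188 to 1654 CPM with AA, overlapped. Of these 8 markers, 7, 7 and 4 fell and 0, 0 and 1 rose at days 1, 3 and 6 of AA. With PGE2 7 and 8 fell and 0 rose at days 1 and 3, to be read against the same shares of all genes. Markers of fetal-like epithelium, a state described in regenerating intestine, were higher. All 7 rose at days 1 and 3 of AA (median log2 fold change 1.87 and 1.41) and of PGE2 (2.59 and 1.82), and 6 of 6 tested at day 6 of AA (1.47), against the same shares of all genes. Their sum at day 1 was 315 to 346 CPM with vehicle, 1223 to 1282 CPM with AA and 2147 to 2188 CPM with PGE2. It was 409 to 491, 1115 to 1319 and 2099 to 2144 CPM at day 3, and 58.2 to 83.8 CPM with vehicle and 131 to 194 CPM with AA at day 6. The part of these cell type markers in the members' responses was not tested.

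**Figure D5:**
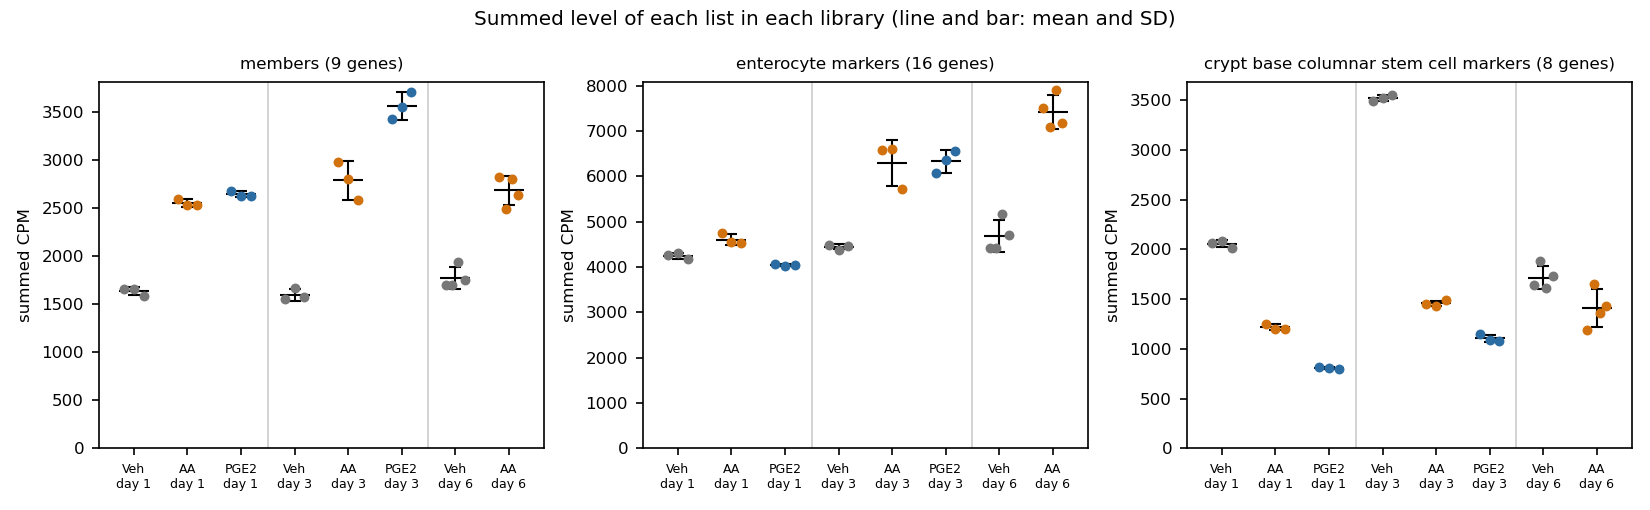
Summed CPM of the 9 members, the 16 enterocyte markers and the 8 stem cell markers in each library, by treatment and day; points are libraries, with the mean and SD of each group. At day 1 of PGE2 the enterocyte sum lies below vehicle and the sum of the members above it. Apob is the largest part of the members' sum there, with group means of 792 CPM with vehicle and 1795 CPM with PGE2. The median log2 fold change of the 9 members was 0.03. At day 3 of AA and of PGE2 the enterocyte sum lies above vehicle.

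For each member the 3 genes with the most similar pattern were found by the root mean square difference of centred log2 CPM over the 18 libraries of days 1 and 3, where the median over all genes was 0.408 for Dgat1 and 0.900 for Apoc3, the lowest and the highest of the 9. Mttp was closest to Hnf4g, Ugt2b34 and Akr1c19 (0.118 to 0.141). In the day 6 libraries, not used for the choice, the difference over the 27 pairs ran from 0.0733 for Mttp and Hnf4g to 0.591 for Apoc3 and Slc11a2, with 0.504 for Apoa1 and Gda and 0.419 for Fabp2 and Sult1d1, and was not set against all genes. Hnf4g held 38.8 ± 1.79 CPM at day 1 of PGE2 against 58.1 ± 5.30 CPM with vehicle (-0.58 ± 0.07, adjusted p = 1.83e-08), and 97.7 ± 6.84 CPM at day 3 of AA against 52.0 ± 3.35 CPM. Dgat2 was closest to Themis3, Xkr9 and Pparg (0.109 to 0.122). Fabp2 was closest to Sult1d1, Cyp3a11 and Fmo4 (0.142 to 0.165) and Mogat2 to Sult1d1, Gsta1 and Anxa13 (0.145 to 0.146), so that Sult1d1 was nearest to both. Apob was closest to Abhd2, Cnksr1 and Tmcc3 (0.108 to 0.126), Apoa4 to Ncoa4, Fam162a and Espn (0.104 to 0.140) and Dgat1 to Cda, Abcc2 and Gna11 (0.114 to 0.121). Apoa1 was closest to Gda, Slc26a2 and Tmigd1 (0.212 to 0.220) and Apoc3 to Cyp2s1, Slc11a2 and Acaa1b (0.230 to 0.365). Their medians over all genes, 0.844 and 0.900, were also above those of the other members. The differences are therefore not comparable between members. The libraries share the treatments and the depth of the table.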

How the data were processed

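The deposited values are raw read counts per gene, in 1 table for days 1 and 3 (18 libraries) and 1 for day 6 (8 libraries), with the authors' library names matched to samples and 0 columns left without a sample. Per the submitters' processing notes, the tools were limma 3.46, STAR, cutadapt and DESeq2, with no role stated. The library kit was directional per the labels' protocols, but the counter and its strand setting are not stated in the sources used here. The notes name a human build beside mouse identifiers, so no coordinates of the counted genes are given.

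The test was edgeR 4.0.16 under R 4.3.3 (filterByExpr by group, TMM scaling, robust quasi-likelihood fit, 1 mean per group). Days 1 and 3 (14850 genes) and day 6 (14663 genes) were fitted separately, and all 26 libraries jointly (15504 genes) only for the AA response at day 6 minus day 3. P-values of the 11 comparisons were adjusted by Benjamini-Hochberg over all genes tested (threshold 0.05). Standard errors come from the F statistic. CPM is TMM-scaled within a table without a prior count, and CPM per kb uses the exon union of GENCODE vM21. Alternatives were other scalings, other filters, leaving out rRNA-like and mitochondrial genes, a replicate block, only the groups in a contrast, DESeq2 1.42.0 and leaving out each library. Scripts were tested on simulated data. Members and lists were chosen with earlier results of these data known. All members were named in every comparison. Of each other list up to 3 called genes with the smallest p per comparison with vehicle were eligible to be named, and for each member the 3 genes of most similar pattern. In 30 of 30 replicate pairs the libraries differed by more than counting error (chi-square per degree of freedom 1.24 to 25.2).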

Additional observations from a re-analysis of the deposited data

Results flagged for a closer look

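A difference between the responses of 2 days was called for 20 of the 27 member tests, each by the test of the difference itself over all genes. Over all genes, the AA response at day 3 minus day 1 was called higher for 10% and lower for 7.95%. These shares were 12.6% and 11.6% for the PGE2 response. For the AA response at day 6 minus day 3 they were 8.78% and 10.4%. The tests are not independent, since the AA response at day 3 enters both AA contrasts. Values are log2 differences of responses.

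The AA response at day 3 exceeded that at day 1 by 1.87 for Apoc3, 1.05 for Apoa1, 0.87 for Mogat2, 0.63 for Apoa4, 0.62 for Mttp, 0.54 for Dgat1, 0.51 for Fabp2 and 0.38 for Dgat2, while that of Apob was lower, at -0.30. The Apob call did not hold when 1 of 6 libraries was left out.

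The PGE2 response at day 3 exceeded that at day 1 by 1.55 for Fabp2, 1.26 for Mogat2, 1.07 for Mttp, 1.07 for Apoa1, 0.83 for Dgat1 and 0.33 for Dgat2. For Fabp2, Mttp and Dgat1 the response changed sign between the days, from lower to higher than vehicle.

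The AA response at day 6 was below that at day 3 for Apoa1 (-0.92), Dgat2 (-0.81), Fabp2 (-0.74), Mogat2 (-0.55) and Dgat1 (-0.36). Day and library content, such as the share of mitochondrial rRNA, changed together here and cannot be told apart, and the vehicle libraries of day 6 and the AA libraries of day 6 each include a replicate that lay apart. Each of the 9 genes was tested in the 2 day 6 groups of 4 libraries for a library far from the others. The measure was its gap to the nearest library over the range (Dixon's test), and 0 of these 18 tests found one. With 4 libraries only an extreme gap is found, so this does not show that no library lay apart. The largest ratios were 0.825 for Mttp and 0.808 for Apoc3, both in vehicle. Apoa1 in vehicle was at 0.626, though leaving out replicate 4 changed its call.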

How the results depend on the processing

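Of 783 member values under the alternatives that kept all libraries, 752 kept their direction and their side of the threshold, as did 752 of 792 when 1 library was left out. With total counts alone 1 member in place of 2 was lower with AA than with PGE2 at day 1. With only the groups in the contrast 0 members in place of 1 had a smaller AA response at day 3 than at day 1, and 0 to 1 when 1 library was left out. Fabp2 and Dgat1 at day 1 of AA became called with at least 1 CPM (0.15 and 0.14), when rRNA-like and mitochondrial genes were dropped (0.16 and 0.14), in a fit of only the 2 groups compared (0.16 and 0.14), and each when 1 vehicle library of day 1 was left out.

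Values that changed sign were not called in either setting. For Apoa1 in vehicle at day 3 against day 1 they were -0.00050 with DESeq2 size factors, -0.046 with no filter and -0.011 with DESeq2 (-0.024 to 0.043 leaving out 1 library). For Apob in that comparison they were 0.055 with total counts and 0.0035 with at least 1 CPM (-0.11 to 0.037), and for Mttp 0.034 with total counts. The Apob AA response at day 6 minus day 3 was 0.0065 with DESeq2 size factors, 0.067 with total counts, 0.013 with no filter and 0.0032 with DESeq2 (-0.081 to 0.084). Total counts gave -0.045 for Apoc3 at day 1 of PGE2 (-0.049 to 0.18), 0.040 for Dgat2 in AA against PGE2 at day 1 (-0.046 to 0.0093), and at day 3 -0.019 for Dgat1 (-0.021 to 0.086) and -0.012 for Dgat2. Mogat2 in AA against PGE2 at day 3 was 0.021 with no filter, 0.0050 with at least 1 CPM, 0.0042 without rRNA-like and mitochondrial genes and 0.0025 with DESeq2 (-0.050 to 0.059). The Apoa4 PGE2 response at day 3 minus day 1 was -0.0011 with at least 1 CPM (-0.041 to 0.12). The cause of these changes was not tested.

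Replicate numbers are shared between groups. At days 1 and 3 deviations of same-numbered libraries correlated at -0.0831 to 0.156 (median -0.00489, 3 of 45 above 0.1). Those of differently numbered libraries correlated at -0.211 to 0.141 (median 0.00112, 2 of 90 above 0.1). At day 6 the 4 same-numbered pairs lay at -0.0665 to 0.136 (median 0.0766, 1 above 0.1). The 12 other pairs lay at -0.223 to 0.284 (median -0.0204, 2 above 0.1). So few pairs cannot decide whether same-numbered libraries of day 6 deviated together. With a replicate block Fabp2 at day 1 of AA was called (0.13, adjusted p = 0.0309), as was the Apoc3 AA response at day 6 minus day 3 (-0.61, adjusted p = 0.0331, and -0.61 with no filter), and the Apob difference there was 0.0026. The block moved the members called higher at day 1 of AA from 6 to 7 and those lower in the last contrast from 5 to 6.

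Leaving out 1 library also added calls: Apoa1 at day 6 of AA without vehicle replicate 4 (0.61), Apoa4 in AA against PGE2 at day 1 without AA replicate 1 (-0.25), the Apob PGE2 response without vehicle replicate 2 of day 3 (0.25), and in the AA response at day 6 minus day 3 Mttp without AA replicate 3 of day 3 (-0.27) and Apoc3 without vehicle replicate 2 (-0.83) or AA replicate 3 (-0.72) of day 6. Depth limits mainly Apoc3.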
